A study of Mus musculus with 6 samples.

Results

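The core cardiac transcription factors are 10 genes whose proteins bind DNA and switch on the gene programme of heart muscle: the zinc finger genes Gata4 and Gata6, the homeobox gene Nkx2-5, the T-box genes Tbx5 and Tbx20, the basic helix-loop-helix gene Hand2, and the MADS box genes Mef2a, Mef2c, Mef2d and Srf. They were chosen by name, for their known role, and found by symbol in the GRCm38 mouse annotation, where each matched 1 Ensembl gene of the 52550 mouse genes counted. All 10 passed the filter on low counts. Expression was measured in 3 GR-cKO and 3 control hearts, called biological replicates in the labels, all at postnatal day 7. GR-cKO mice carry a deletion of the glucocorticoid receptor, encoded by Nr3c1, that is specific to cardiomyocytes. Control genotype is given only as ctrl, and the labels name neither the Cre line, the deleted exon, the strain nor the sex. RNA came from homogenised hearts, so each value averages heart muscle cells and all other cells of the organ, and fewer cells of a type cannot be told apart from less RNA per cell.

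These factors work as a network. GATA4, NKX2-5, TBX5 and HAND2 bind one another and shared enhancers in the embryonic heart, and loss of any of them in the mouse embryo disturbs heart formation. MEF2 proteins and SRF bind A/T-rich sites in genes of the sarcomere, the contractile unit of muscle, and respond to calcium, growth factor and actin signals. After birth the factors stay on in heart muscle cells, and several of them are also made in fibroblasts, endothelial cells or smooth muscle of the heart.

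The libraries held 18135540 to 20988286 reads in GR-cKO hearts and 19209410 to 22999192 reads in control hearts. They were 3′ mRNA libraries, in which each transcript gives reads from its end only, so that gene length does not enter. Levels of different genes are therefore set side by side as CPM, the counts scaled to a common library size by the trimmed mean of M-values (TMM). Whether the ends of different genes were read and assigned equally well was not tested. Nr3c1 was at 57.6, 49.2 and 56.2 CPM in GR-cKO hearts, against 114, 131 and 99.7 CPM in control hearts (log2 fold change -1.08, SE 0.13, edgeR adjusted p = 0.00101). GR-cKO replicate 3 stood apart in part of its RNA: Gm42418, a gene model known to collect ribosomal RNA reads and singled out after its values were seen, took 10.9% of its mouse gene reads, against 5.47 and 7.10% in the other GR-cKO hearts and 6.26 to 7.69% in control hearts. Summed CPM of the 8 cardiomyocyte markers Tnnt2, Myh6, Actn2, Ryr2, Pln, Ttn, Myl3 and Mybpc3 ran from 60857 to 74426 in GR-cKO hearts and from 53642 to 66383 in control hearts. Myl3 held the largest part, with means of 34963 CPM in GR-cKO and 30505 CPM in control hearts. Of the 8 genes 7 had a positive and 1 a negative log2 fold change, with a median of 0.13, beside 0.01 for all tested genes.

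None of the 10 factors passed the test of GR-cKO against control hearts, the edgeR quasi-likelihood test over all genes with a threshold of 0.05 on the adjusted p. Their adjusted p-values were all 0.998 or above, and 1 of the 14860 tested genes, Nr3c1, was called, which is 0.00673%. At an unadjusted p under 0.05 the count was 0 of 10 factors, against 4.20% of all tested genes. DESeq2 and limma voom also called 0 of the 10. At an unadjusted p under 0.05, DESeq2 had 1 factor, Srf, and limma voom had 0. The 3 GR-cKO and 3 control hearts overlapped for every one of the 10, where 9.97% of all tested genes had groups that did not overlap. By sign, 4 factors had a positive and 6 a negative log2 fold change (GR-cKO over control), where 7619 of all 14860 tested genes had a positive one. The median of the 10 was -0.01, beside 0.01 for all tested genes. The signs of Hand2, Tbx5 and Mef2d turned with the scaling of the libraries.

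In the fit on all hearts, the size of the differences was bounded for all 10. Neither a 2-fold increase nor a 2-fold decrease lay within any of the 95% intervals, as held for 72.2% of all tested genes. For 8 of the 10 the interval was also inside 1.5-fold, as for 47.8% of all tested genes. Gata4 and Srf were the 2 factors whose intervals reached past 1.5-fold, both on the upper side. The bound for Srf depended on the hearts used. Without GR-cKO replicate 3 its interval was -0.36 to 1.14 on the log2 scale, which includes a 2-fold increase.

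**Figure D1:**
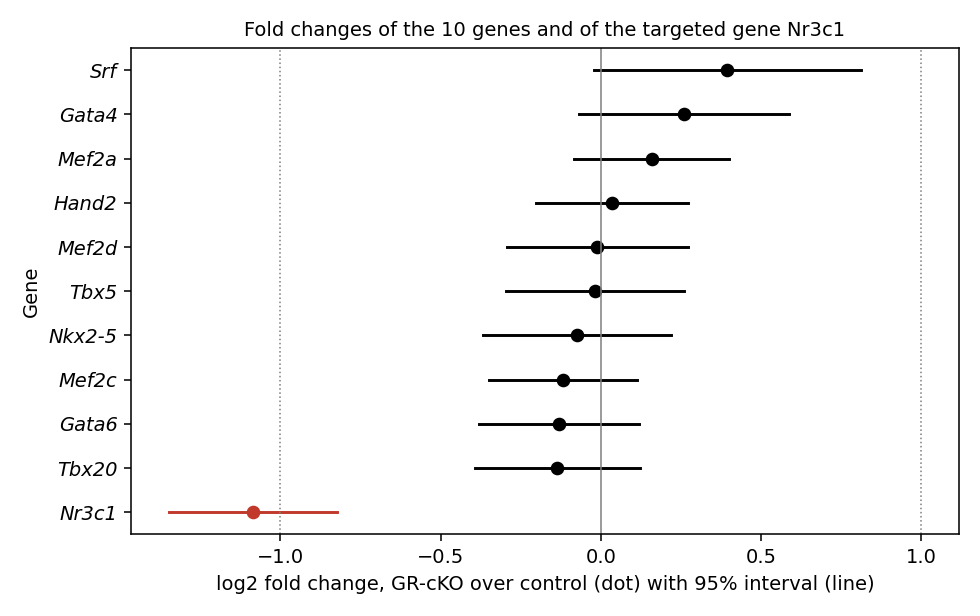
Log2 fold change, GR-cKO over control, of the 10 factors and of the targeted gene Nr3c1, with the 95% interval of the edgeR fit as a line and dotted lines at a 2-fold change. The interval of every factor spans 0, from Srf (0.39) down to Tbx20 (-0.14), while that of Nr3c1 lies at -1.35 to -0.82.

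Matches to the motifs of these families lie near the start sites of some of the factors themselves, and 4 such windows are shown to give the DNA letters that the families are known to bind. RefSeq promoter windows on GRCm38.p6, 250 bases before to 50 after each start site, matched 7 of the 10 factors (Nkx2-5, Tbx20, Hand2, Mef2a, Mef2c, Mef2d and Srf) with 9 windows. The first 270 bases of 4 windows are given 5′ to 3′ on the gene's strand. Capitals mark matches on either strand to the CArG box bound by SRF in Srf (chr17:46556143-46556412, minus strand) and Actc1 (chr2:114052856-114053125, minus strand), to the MEF2 site in Mef2a (chr7:67372839-67373108, minus strand) and to the GATA motif in Hand2 (chr8:57320733-57321002, plus strand). The GATA motif searched was AGATAA, its form with T as the first letter, and the forms of both that end in G. Actc1, the cardiac actin gene, is shown as a textbook SRF target.
Srf: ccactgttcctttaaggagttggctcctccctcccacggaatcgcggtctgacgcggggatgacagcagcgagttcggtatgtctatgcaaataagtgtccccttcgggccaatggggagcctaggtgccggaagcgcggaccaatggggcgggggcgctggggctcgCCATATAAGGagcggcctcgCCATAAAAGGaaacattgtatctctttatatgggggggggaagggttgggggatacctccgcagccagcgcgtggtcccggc
Mef2a: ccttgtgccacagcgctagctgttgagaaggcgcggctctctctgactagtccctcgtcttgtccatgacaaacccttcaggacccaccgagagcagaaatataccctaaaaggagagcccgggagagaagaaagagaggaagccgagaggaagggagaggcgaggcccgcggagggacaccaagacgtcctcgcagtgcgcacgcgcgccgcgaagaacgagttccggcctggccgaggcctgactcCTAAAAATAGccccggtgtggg
Hand2: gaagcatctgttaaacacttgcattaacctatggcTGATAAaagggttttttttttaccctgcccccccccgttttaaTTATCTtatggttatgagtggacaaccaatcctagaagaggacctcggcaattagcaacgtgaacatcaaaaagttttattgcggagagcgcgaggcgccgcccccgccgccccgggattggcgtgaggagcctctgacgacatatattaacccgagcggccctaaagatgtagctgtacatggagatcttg
Actc1: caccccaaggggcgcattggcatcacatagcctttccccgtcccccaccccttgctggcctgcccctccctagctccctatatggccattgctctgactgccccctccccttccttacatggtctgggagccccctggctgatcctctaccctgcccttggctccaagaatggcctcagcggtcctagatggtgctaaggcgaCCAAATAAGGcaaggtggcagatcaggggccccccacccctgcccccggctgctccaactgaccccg

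The Srf window held 2 CArG boxes, with first bases at -82 and -62 from the start site, and the Actc1 window held 1 at -47. A CArG box occurred in 1.63% of all 32851 windows of this length. Mef2a had 1 match to the MEF2 site, from base -2 across the start site, and 3.19% of all windows had one. Hand2 had 2 GATA matches, at -215 and -172, a motif found in 29.8% of all windows. No window of the 7 factors matched the NKX motif TNAAGTG (11.5% of all windows) or the T-box motif AGGTGTGA (1.28%). E-boxes, CANNTG, to which HAND2 and its relatives bind, were in windows of Nkx2-5, Hand2 and Mef2c and in 72.3% of all. The glucocorticoid response element, the palindrome bound by a receptor dimer, was in none of the 9 windows and in 0.475% of all, and its half-site AGAACA, which can lie within the full element, was in 2 of the 3 Mef2c windows and in 19.0% of all. These are matches of letters in a short window, and binding was not measured.

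In control hearts the levels of the 10 factors spanned 8.57-fold, and they fell into 3 tiers. MADS box genes led, with Mef2a at 233 ± 17.4, Mef2d at 219 ± 6.20, Srf at 204 ± 30.8 and Mef2c at 182 ± 4.22 CPM, followed by Gata6 at 165 ± 18.8 and Tbx20 at 157 ± 21.8 CPM (SD, n = 3). A middle tier held Hand2 at 79.7 ± 3.30, Nkx2-5 at 73.3 ± 8.24 and Tbx5 at 72.9 ± 5.86 CPM. Gata4 was lowest at 27.1 ± 2.84 CPM. The ranges of neighbours in this order overlapped except between Tbx20 and Hand2, a step of 1.96-fold, and between Tbx5 and Gata4, a step of 2.69-fold. Both steps were present in all 3 control hearts. Against all tested genes the factors were well expressed, since 94.0 to 96.3% of genes had a lower control mean than each gene of the upper tier, 85.7 to 87.0% a lower one than each of the middle tier, and 65.7% a lower one than Gata4.

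GR-cKO hearts had the same tiers with 1 change at the top and 1 in the middle. Srf led at 269 ± 79.6 CPM with the widest spread, ahead of Mef2a at 259.7 ± 24.6 and Mef2d at 217 ± 47.1 CPM (SD, n = 3), but it exceeded Mef2a in only 1 of the 3 hearts. Tbx5 and Nkx2-5 changed places at 71.9 ± 12.4 and 69.6 ± 13.9 CPM, with overlapping ranges. Gata4 was again lowest at 32.5 ± 5.63 CPM, and the 10 levels spanned 8.27-fold.

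**Figure D2:**
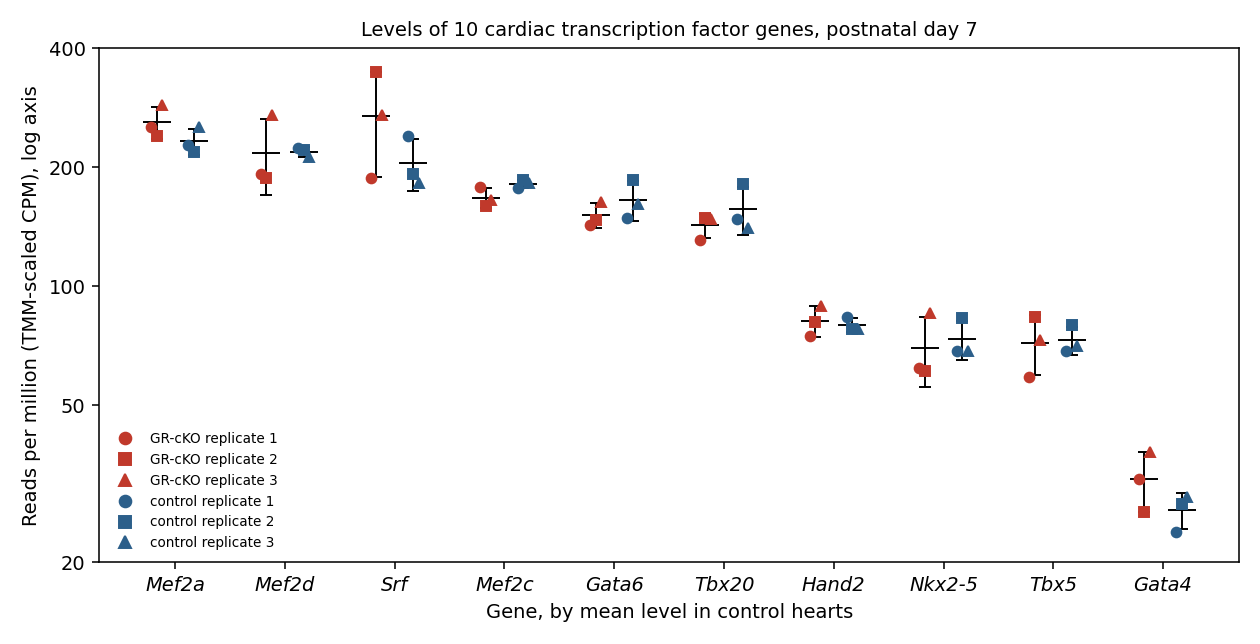
TMM-scaled CPM on a log axis of the 10 factors in each of the 3 GR-cKO (red) and 3 control (blue) hearts, with mean and SD as black lines, ordered by the mean in control hearts. The upper tier from Mef2a to Tbx20 lies at 131 CPM or higher in all 6 hearts, the middle tier between 59.0 and 89.1 CPM, and Gata4 between 23.9 and 38.1 CPM.

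Among the GATA factors, Gata6 was read more often than Gata4, with 4.28 to 6.60 reads per Gata4 read over the 6 libraries. Gata4 (ENSMUSG00000021944, chromosome 14, 63198922 to 63271692, minus strand) encodes a zinc finger factor that drives embryonic heart muscle growth and the hypertrophic response. It had 32.5, 26.9 and 38.1 CPM in GR-cKO hearts, against 23.9, 28.2 and 29.3 CPM in control hearts. GR-cKO replicates 1 and 3 lay above all controls, and GR-cKO replicate 2 lay among them. Its log2 fold change was 0.26 (SE 0.16, 95% interval -0.07 to 0.59, edgeR adjusted p = 0.998). Leaving out GR-cKO replicate 3 gave 0.13, and leaving out GR-cKO replicate 2 gave 0.38 (unadjusted p = 0.0337, adjusted p = 0.867).

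Gata6 (ENSMUSG00000005836, chromosome 18, 11052064 to 11085635, plus strand), whose product shares most of its heart functions with GATA4 and also marks smooth muscle and endocardial cells, had a fold change of the other sign. It had 143, 147 and 163 CPM in GR-cKO hearts, against 149, 186 and 161 CPM in control hearts, and the groups overlapped. This gave a log2 fold change of -0.13 (SE 0.12, 95% interval -0.38 to 0.12, edgeR adjusted p = 0.998). Without control replicate 2, its highest heart, the value was -0.04.

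Gata4 made up 18.5, 15.5 and 18.9% of the reads of both GATA genes in GR-cKO hearts, against 13.8, 13.2 and 15.4% in control hearts. The 3 GR-cKO shares lay above the 3 control shares, by a margin in the nearest pair of 15.5% in GR-cKO replicate 2 and 15.4% in control replicate 3. In CPM of single genes, 9.97% of all tested genes had groups that did not overlap, in either order. No such rate was computed for shares. Gata6 reads per Gata4 read were 4.39, 5.46 and 4.28 in GR-cKO hearts, against 6.23, 6.60 and 5.49 in control hearts. The mean share differed by 3.52 percentage points, and by 2.88 to 4.61 points with each heart left out. Both genes together had 175, 174 and 201 CPM in GR-cKO hearts and 173, 214 and 190.4 CPM in control hearts, which overlapped. No test was made of these shares.

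A noncoding gene on the strand opposite Gata6, 1010001N08Rik, overlaps it by 504 bases. It was at 12.5, 12.6 and 8.77 CPM in GR-cKO hearts, against 16.8, 17.8 and 16.2 CPM in control hearts. All 3 GR-cKO hearts lay below all 3 controls, as either order did for 9.97% of tested genes. It had a log2 fold change of -0.58 (SE 0.19, 95% interval -0.99 to -0.17). This had an unadjusted p of 0.00786 and an edgeR adjusted p of 0.998. It is described because of its position, and its value was known when it was singled out. Whether the authors counted by strand is not given in the sources used here. The counts of Gata6 and of this gene are uncertain in the overlap if strand was not used.

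Nkx2-5 (ENSMUSG00000015579, chromosome 17, 26838664 to 26845009, minus strand) encodes the homeodomain factor that marks cardiac progenitors and sustains the conduction system. Its level was 62.1, 61.0 and 85.6 CPM in GR-cKO hearts, against 68.6, 82.8 and 68.5 CPM in control hearts. GR-cKO replicate 3 was the highest of all 6, and the other GR-cKO hearts were the lowest. Nkx2-5 had a log2 fold change of -0.08 (SE 0.14, 95% interval -0.37 to 0.22, edgeR adjusted p = 0.999), and it was -0.25 without GR-cKO replicate 3 and 0.02 without control replicate 2.

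The T-box genes did not separate the groups either. Tbx5 (ENSMUSG00000018263, chromosome 5, 119832668 to 119885219, plus strand), which patterns the atria, the septum and the conduction system and is mutated in Holt-Oram syndrome in humans, had 59.0, 83.7 and 73.0 CPM in GR-cKO hearts, against 68.7, 79.6 and 70.4 CPM in control hearts. Its lowest and highest heart were both GR-cKO. Tbx5 had a log2 fold change of -0.02 (SE 0.13, 95% interval -0.30 to 0.26, edgeR adjusted p = 1.00), with a positive sign, 0.042, when libraries were scaled by spike-in reads.

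Tbx5 is known for higher expression in atria than in ventricles, and the level of atrial markers varied between hearts. The 7 atrial markers (Nppa, Myl4, Myl7, Sln, Bmp10, Stard10 and Dkk3) summed to 2464, 3850 and 2885 CPM in GR-cKO replicates 1, 2 and 3, against 2660, 4500 and 3296 CPM in control replicates 1, 2 and 3. Within each group the heart with the highest atrial sum, replicate 2, also had the highest Tbx5 level, and the heart with the lowest sum, replicate 1, had the lowest. Between groups the orders differed. Control replicates 2 and 3 had higher sums than GR-cKO replicates 2 and 3, but less Tbx5 (79.6 and 70.4 against 83.7 and 73.0 CPM). Control replicate 1 was above GR-cKO replicate 1 in both. All 7 markers had a negative log2 fold change with a median of -0.20, where 7241 of all 14860 tested genes had a negative one. In edgeR 0 of 7 had an unadjusted p under 0.05, beside 4.20% of all tested genes. The part of atrial content in the Tbx5 level was not tested.

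Tbx20 (ENSMUSG00000031965, chromosome 9, 24718138 to 24774303, minus strand) encodes a T-box factor needed in the adult mouse heart for contraction and ion channel expression. It had 131, 149 and 148 CPM in GR-cKO hearts, against 148, 181 and 140.2 CPM in control hearts. Control replicate 2 was the highest and GR-cKO replicate 1 the lowest. Tbx20 had a log2 fold change of -0.14 (SE 0.12, 95% interval -0.39 to 0.12, edgeR adjusted p = 0.998) and one of -0.02 without control replicate 2. Tbx5 made up 31.0, 36.0 and 33.1% of the reads of both T-box genes in GR-cKO hearts, against 31.7, 30.5 and 33.4% in control hearts, and these shares overlapped.

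Hand2 (ENSMUSG00000038193, chromosome 8, 57320983 to 57324633, plus strand), which encodes a factor of the right ventricle and of the epicardium, was among the steadiest of the 10. It had 74.7, 81.2 and 89.1 CPM in GR-cKO hearts, against 83.5, 77.7 and 77.8 CPM in control hearts. Hand2 had a log2 fold change of 0.04 (SE 0.11, 95% interval -0.20 to 0.27, edgeR adjusted p = 0.999), with a negative sign, -0.0040, when libraries were scaled by their totals. The 3 controls lay within the range of the GR-cKO hearts.

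Hand2os1, a long noncoding RNA transcribed from the opposite strand, overlaps Hand2 by 3251 bases and was as abundant. Its level was 111, 84.1 and 73.0 CPM in GR-cKO hearts, against 85.3, 100.7 and 95.4 CPM in control hearts (log2 fold change -0.07, SE 0.14, edgeR adjusted p = 0.999). In GR-cKO hearts it was highest where Hand2 was lowest, in replicate 1, and lowest where Hand2 was highest, in replicate 3. Control hearts had the same inverse order. There Hand2os1 was lowest in replicate 1, where Hand2 was highest. It was highest in replicate 2, where Hand2 was at 77.73 CPM, against 77.78 CPM in control replicate 3. The counts of both genes are uncertain in the overlap if strand was not used.

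The 3 MEF2 genes were read in similar amounts. In control hearts Mef2a, Mef2d and Mef2c took 36.7 ± 2.05, 34.6 ± 1.57 and 28.7 ± 0.85% of their joint reads (SD, n = 3), while Mef2b had 0 reads in every library. Mef2a (ENSMUSG00000030557, chromosome 7, 67231163 to 67372858, minus strand) encodes the main MEF2 factor of the postnatal mouse heart and of its mitochondrial upkeep. It had 252, 239.7 and 287 CPM in GR-cKO hearts, against 228, 218 and 252 CPM in control hearts. GR-cKO replicate 3 was the highest, and GR-cKO replicates 1 and 2 lay near control replicate 3. Mef2a had a log2 fold change of 0.16 (SE 0.12, 95% interval -0.08 to 0.40, edgeR adjusted p = 0.998). Without GR-cKO replicate 3, its highest heart, the value was 0.081, and without control replicate 3 it was 0.22.

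Mef2c (ENSMUSG00000005583, chromosome 13, 83504034 to 83667080, plus strand), the earliest MEF2 gene of the embryonic heart, also acts in endothelial and immune cells. It had 178, 159 and 165 CPM in GR-cKO hearts, against 177, 185 and 183 CPM in control hearts. GR-cKO replicates 2 and 3 lay below all controls and GR-cKO replicate 1 just above the lowest control. Mef2c had a log2 fold change of -0.12 (SE 0.11, 95% interval -0.35 to 0.11, edgeR adjusted p = 0.998). Mef2c varied least of the 10 over the 6 hearts, with a range of 0.22 on the log2 scale, and 12.8% of the 817 genes within 1.5-fold of its level had a smaller range.

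Mef2d (ENSMUSG00000001419, chromosome 3, 88142372 to 88172086, plus strand) encodes the MEF2 factor tied to stress signalling in the adult mouse heart. Its level was 192, 188 and 271 CPM in GR-cKO hearts, against 224, 221 and 212 CPM in control hearts. All controls lay between the lower pair of GR-cKO hearts and GR-cKO replicate 3. Mef2d had a log2 fold change of -0.01 (SE 0.13, 95% interval -0.29 to 0.27, edgeR adjusted p = 1.00), with a positive sign, 0.0067, under spike-in scaling, and a value of -0.20 without GR-cKO replicate 3. Its coefficient of variation was 21.7% in GR-cKO hearts and 2.84% in control hearts.

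Mef2a took 40.6, 40.9 and 39.7% of the reads of the 3 MEF2 genes in GR-cKO hearts, against 36.2, 35.0 and 39.0% in control hearts. The 3 GR-cKO shares lay above the 3 control shares, with control replicate 3 close to GR-cKO replicate 3. Groups did not overlap in CPM for 9.97% of all tested genes, in either order, and no such rate was computed for shares. The mean share differed by 3.65 percentage points, and by 2.77 to 4.78 points with each heart left out. Shares of Mef2c (28.6, 27.1 and 22.8% in GR-cKO hearts, against 28.2, 29.7 and 28.3% in control hearts) and of Mef2d (30.8, 32.0 and 37.5% in GR-cKO hearts, against 35.6, 35.4 and 32.8% in control hearts) overlapped. The joint level was 622, 587 and 724 CPM in GR-cKO hearts and 628, 624 and 646 CPM in control hearts. No test was made of these shares.

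**Figure D3:**
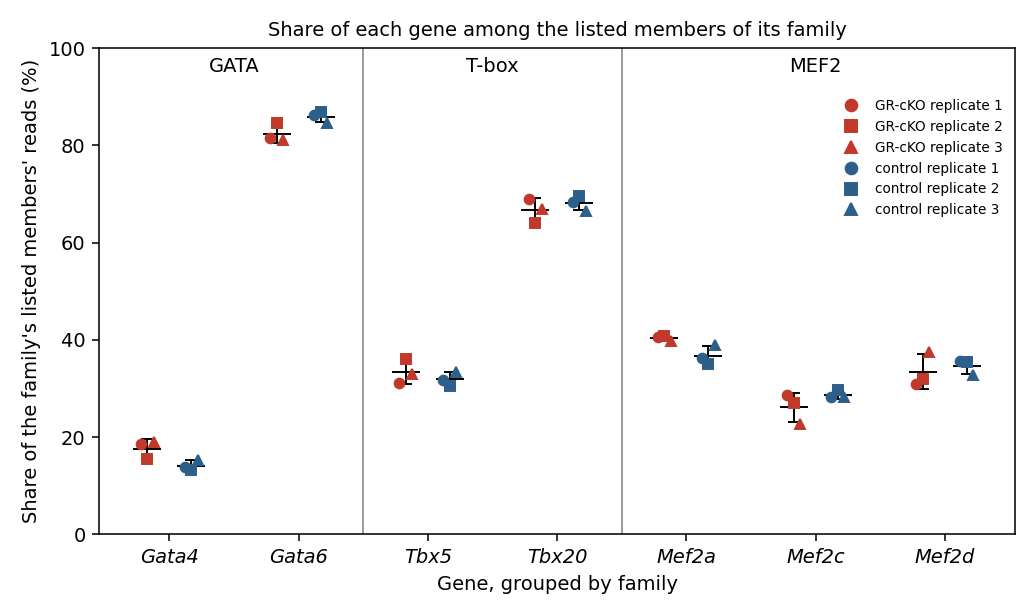
Share of each gene in the reads of the listed members of its family, in percent, for 3 GR-cKO (red) and 3 control (blue) hearts with mean and SD. The shares of Gata4 (15.5 to 18.9% in GR-cKO and 13.2 to 15.4% in control hearts) and of Mef2a (39.7 to 40.9% in GR-cKO and 35.0 to 39.0% in control hearts) lie in ranges that do not overlap, while the T-box, Mef2c and Mef2d shares overlap. In CPM, groups did not overlap for 9.97% of all tested genes, and no such rate was computed for shares.

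Srf (ENSMUSG00000015605, chromosome 17, 46548329 to 46556175, minus strand) encodes serum response factor, which with myocardin partners drives sarcomere and cytoskeletal genes and with ETS partners drives immediate early genes. It had the highest log2 fold change and the widest spread of the 10. Its level was 188, 347 and 271 CPM in GR-cKO hearts, against 239, 192 and 182 CPM in control hearts. GR-cKO replicates 2 and 3 lay above every control, and GR-cKO replicate 1 lay among the lower controls. Srf had a log2 fold change of 0.39 (SE 0.19, 95% interval -0.02 to 0.81). This had an unadjusted p of 0.0615 and an edgeR adjusted p of 0.998.

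The Srf value depended on which hearts were counted. Without GR-cKO replicate 2 the log2 fold change was 0.16, and without GR-cKO replicate 1 it was 0.60, with an unadjusted p of 0.000757 and an adjusted p of 0.639. Without control replicate 1 it was 0.52. Over the 6 hearts its range was 0.93 on the log2 scale, and 97.4% of the 539 genes within 1.5-fold of its level had a smaller range.

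Egr1 and Fos, 2 immediate early genes that SRF is known to drive, also varied between hearts. Both were singled out after their values were seen. Egr1, an immediate early zinc finger gene, had 27.3, 54.2 and 41.3 CPM in GR-cKO replicates 1, 2 and 3, against 54.1, 19.8 and 21.5 CPM in control replicates 1, 2 and 3. The same 3 hearts, GR-cKO replicates 2 and 3 and control replicate 1, were the highest for Srf and for Egr1. Fos, another such gene, had 2.12, 4.86 and 1.67 CPM in GR-cKO replicates 1, 2 and 3, against 3.02, 1.90 and 0.734 CPM in control replicates 1, 2 and 3. GR-cKO replicate 2 was highest for Fos too, but the rest of the order differed from that of Srf. For Fos, GR-cKO replicate 3 lay below control replicates 1 and 2. The log2 fold changes of Egr1 (0.36, SE 0.52) and Fos (0.61, SE 0.51) had edgeR adjusted p-values of 0.999 and 0.998. The part of immediate early activity in the Srf level was not tested.

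Seen heart by heart, the 10 factors did not move as a block. GR-cKO replicate 3 was the highest heart for 5 of them (Gata4, Nkx2-5, Hand2, Mef2a and Mef2d), where 23.0% of all tested genes were highest in that library. It was the lowest for 0 of the 10, against 22.0% of all tested genes. GR-cKO replicate 1 was the lowest for 4 (Gata6, Tbx5, Tbx20 and Hand2), against 15.4% of all tested genes, and GR-cKO replicate 2 for 3 (Nkx2-5, Mef2c and Mef2d), against 16.4%. Control replicate 2 was the highest for 3 (Gata6, Tbx20 and Mef2c), against 17.9% of all tested genes. Summed over the 10, the level was 1312, 1482 and 1592 CPM in GR-cKO hearts and 1409.5, 1451 and 1375 CPM in control hearts, so the lowest and the highest heart were both GR-cKO.

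**Figure D4:**
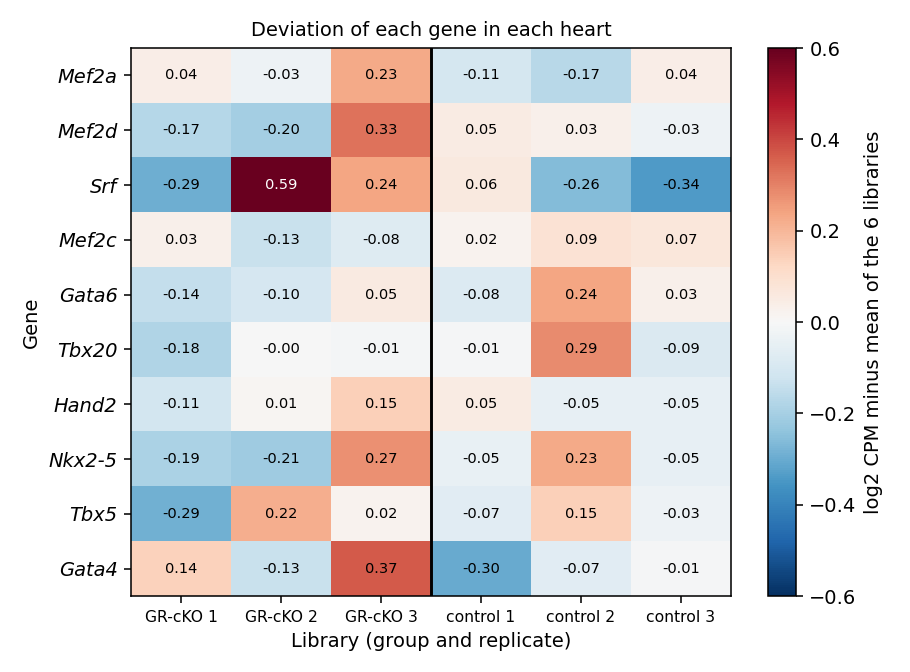
Log2 CPM of each factor in each heart minus its mean over the 6 hearts, with GR-cKO hearts left of the line and control hearts right of it. GR-cKO replicate 3 is above the mean for all of the factors except Tbx20 and Mef2c, and the widest deviation is that of Srf in GR-cKO replicate 2 (0.59).

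Partners and regulators of the factors, a list of 26 genes, showed no call. All 26 were tested, 17 had a positive and 9 a negative log2 fold change, and the median was 0.03, beside 0.01 for all tested genes. Of all 14860 tested genes 7619 had a positive one. The count of positive signs among the 26 was 11 with scaling by library totals and 10 without GR-cKO replicate 3. At an unadjusted p under 0.05 there were 0 of 26 in edgeR, beside 4.20% of all tested genes. The 3 of smallest p were Camta2, an NKX2-5 coactivator, at 76.0, 76.1 and 85.8 CPM in GR-cKO hearts, against 67.4, 70.0 and 67.1 CPM in control hearts, then Elk1, an ETS partner of SRF, and Smarcd3, a chromatin remodelling subunit that works with TBX5 and GATA4. Elk1 averaged 29.3 ± 3.42 CPM in GR-cKO and 24.5 ± 2.66 CPM in control hearts, and Smarcd3 averaged 175 ± 11.4 CPM in GR-cKO and 157 ± 2.16 CPM in control hearts (SD, n = 3 each). Their edgeR adjusted p-values were all 0.998. GR-cKO hearts lay above all controls for 3 of 26 genes, Camta2, Smarcd3 and Hdac4, beside 9.97% of all tested genes in either order. Hdac4 was named after its values were seen.

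Values of 2 direct partners of SRF overlapped between groups, and both genes were named for their roles with their values known. Myocd, the cardiac and smooth muscle coactivator, had 46.0, 52.6 and 55.3 CPM in GR-cKO hearts, against 51.6, 47.5 and 52.2 CPM in control hearts (log2 fold change 0.03, SE 0.12, edgeR adjusted p = 0.999). Hopx, a homeodomain-only inhibitor of SRF, had 119, 138 and 189.5 CPM in GR-cKO hearts, against 152, 169.7 and 130.3 CPM in control hearts.

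Other heart lineage factors numbered 29, of which 26 had enough reads for a test. No call was made. By sign 17 were positive and 9 negative, with a median log2 fold change of 0.06, where 7619 of all 14860 tested genes were positive. The count of positive signs among the 26 was 12 without GR-cKO replicate 2. In edgeR 0 of 26 had an unadjusted p under 0.05, beside 4.20% of all tested genes. Irx5, a homeobox gene of the ventricular repolarisation gradient, had the smallest p, at 13.8, 10.8 and 21.7 CPM in GR-cKO hearts, against 10.4, 10.6 and 12.6 CPM in control hearts. Tcf21, a factor of cardiac fibroblasts, averaged 23.1 ± 0.32 CPM in GR-cKO and 19.6 ± 1.23 CPM in control hearts, and Etv1, a factor of fast conduction, averaged 25.3 ± 1.96 CPM in GR-cKO and 29.7 ± 5.33 CPM in control hearts (SD, n = 3 each). All 3 had an edgeR adjusted p of 0.998. GR-cKO hearts lay above all controls for 2 of the 26, Tcf21 and Meis2, beside 9.97% of all tested genes in either order. Meis2 was named after its values were seen. The 3 factors without a test were at or near 0 in every library. Hand1 had 0 to 3 reads in GR-cKO and 0 to 4 reads in control libraries, Isl1 had 0 to 2 reads in GR-cKO and 0 to 6 reads in control libraries, and Mef2b had 0 in all.

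Of 30 known target genes of the 10 factors, all were tested and none was called. Positive log2 fold changes were 20 and negative ones 10, with a median of 0.08, where 7619 of all 14860 tested genes were positive. In edgeR 3 of the 30 had an unadjusted p under 0.05, beside 4.20% of all tested genes. Acta2, the smooth muscle actin that SRF drives, had 1096, 1125 and 1089.5 CPM in GR-cKO hearts, against 926, 777 and 719.5 CPM in control hearts. The difference was 0.45 on the log2 scale, with an SE of 0.11 and an edgeR adjusted p of 0.998. Hspb7, a small heat shock protein gene of heart muscle, averaged 895 ± 60.2 CPM in GR-cKO and 690.3 ± 151 CPM in control hearts. Corin, which encodes the protease that activates atrial natriuretic peptide and is a GATA4 target in the mouse, averaged 73.1 ± 9.04 CPM in GR-cKO and 90.3 ± 8.35 CPM in control hearts (SD, n = 3 each). Groups did not overlap for 4 of the 30, 3 with GR-cKO hearts above (Acta2, Hspb7 and Tnnc1) and Corin below, beside 9.97% of all tested genes. Tnnc1 was named after its values were seen. Actc1, named for the promoter window given with Srf, had 7463, 6991 and 6698 CPM in GR-cKO hearts, against 6901, 6548 and 6881 CPM in control hearts (log2 fold change 0.06, SE 0.10).

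**Figure D5:**
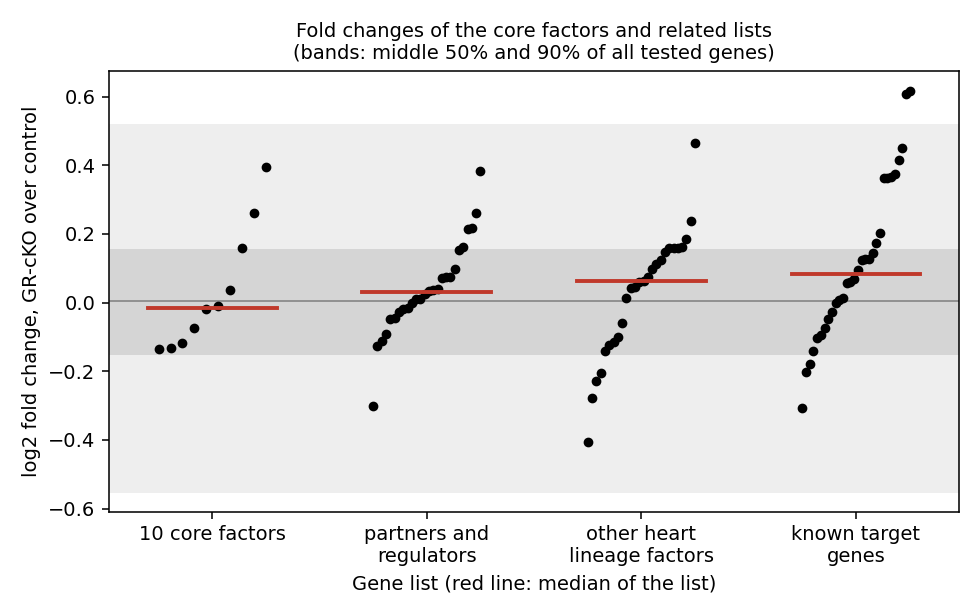
Log2 fold change, GR-cKO over control, of the 10 core factors, 26 partners and regulators, 26 other heart lineage factors and 30 known target genes, with the median of each list in red and bands for the middle 50% (-0.15 to 0.15) and 90% (-0.55 to 0.52) of all tested genes. The medians of the lists lie between -0.01 and 0.08, inside the inner band.

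No marker gene of any cell type list was called. For 4 lists the summed levels did not overlap between groups, and among single tested genes 9.97% had groups that did not overlap. Summed CPM of the endocardial and valve markers Npr3, Nfatc1, Plvap, Postn, Vwf and Hapln1 was 367 to 449.8 in GR-cKO hearts and 466 to 557 in control hearts. Of these 6 genes 3 had a positive and 3 a negative log2 fold change, and Postn, which is also made by fibroblasts, held most of the sum, with a mean of 333 ± 50.9 CPM in GR-cKO and 401 ± 50.8 CPM in control hearts (SD, n = 3 each). Of the 6, 1 had an unadjusted p under 0.05 in edgeR, beside 4.20% of all tested genes. This was Vwf, at 23.7, 17.8 and 22.2 CPM in GR-cKO hearts, against 32.0, 30.7 and 28.6 CPM in control hearts. Its unadjusted p was 0.00306 and its edgeR adjusted p 0.998. Vwf was named after its values were seen. The 6 neutrophil markers summed to 19.7 to 27.8 CPM in GR-cKO hearts and 13.1 to 15.4 CPM in control hearts, and 5 of them could be tested, all with a positive log2 fold change. Their median was 0.69, and 2 of the 5 had an unadjusted p under 0.05 in edgeR. The 6 lymphocyte markers, 5 of them tested, summed to 6.74 to 7.98 CPM in GR-cKO hearts and 4.20 to 6.14 CPM in control hearts. Of these 5, 1 had an unadjusted p under 0.05 in edgeR. The 6 skeletal muscle markers, with too few reads for a test in Actn3, Myh1 and Myh4, summed to 23.0 to 25.5 CPM in GR-cKO hearts and 18.1 to 20.5 CPM in control hearts. Sums for cardiomyocyte, atrial, ventricular, fibroblast, endothelial, mural, epicardial, macrophage, erythroid, adipose and Schwann cell markers overlapped between groups. The part of any of these cells in the level of a factor was not tested.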

How the data were processed

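Hearts of 3 GR-cKO and 3 control mice were profiled at postnatal day 7. Per the labels' protocols, RNA was made into QuantSeq 3′ mRNA-Seq FWD libraries. The authors deposited raw counts, whole numbers of reads per Ensembl gene, 1 library per file. The submitters' processing notes name featureCounts 1.6.2, STAR 2.5.4a, cutadapt 1.16 and DESeq2 1.18.1, without their roles, and the GRCm38 build. Which annotation release and strand setting were used is not given in the sources used here.

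Each file had 52649 rows, 52550 of them mouse genes. The 92 ERCC and 7 SIRV spike-in rows, 1.63 to 2.01% of reads, stayed out of library sizes and tests. Symbols and coordinates came from GENCODE M21 (GRCm38), which matched 52403 gene identifiers. With edgeR 4.0.16 in R 4.3.3, filterByExpr kept 14860 genes, libraries were scaled by TMM, and genotype was tested with the robust quasi-likelihood F test. P-values were Benjamini-Hochberg adjusted over all tested genes (threshold 0.05). The fit was tested on simulated data. CPM uses the reads of tested genes and TMM, and log2 CPM a prior count of 2. Intervals are 95% and rest on the spread between hearts. No molecular identifiers are named, so reads may not be independent molecules. P-values weigh the difference between groups against the spread between the 3 hearts of a group, an estimate that draws on all tested genes. No 2 libraries were copies (lowest chi-square per degree of freedom 10.2). Alternatives were DESeq2 1.42.0, limma 3.58.1 voom, 3 other scalings, no filter, a replicate block and each heart left out.

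The members and lists were chosen with earlier results of these data known. Named genes were the 10 factors, Nr3c1, the 3 genes of smallest p in each related list and those too low for a test; others are named as such. Motifs were searched on both strands of 300-base RefSeq promoter windows (GRCm38.p6).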

Additional observations from a re-analysis of the deposited data

How the results depend on the processing

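In all 13 alternatives run, 0 of the 10 factors were called. The count of called genes was 1 on all hearts, 2 with scaling by library totals, 10 without the filter on low counts, 4 with the DESeq2 test, and 1 to 2 with each heart left out. Nr3c1 was called lower in each. Gata4, Gata6, Tbx20, Mef2a, Mef2c and Srf kept the sign of their fold change in all 13. With each heart left out, the log2 fold change ran from -0.25 to 0.022 for Nkx2-5, -0.15 to 0.11 for Tbx5, -0.030 to 0.10 for Hand2 and -0.20 to 0.080 for Mef2d. It was -0.0040 for Hand2 with library totals, and 0.042 for Tbx5 and 0.0067 for Mef2d with spike-in scaling. The cause of these turns was not tested. Srf had the smallest unadjusted p of the factors. It was 0.0283 with DESeq2 and, in edgeR, 0.0450 with spike-in scaling and 0.00118 without the filter. With a heart left out it was 0.000757 without GR-cKO replicate 1 and 0.0250 without control replicate 1. The smallest adjusted p of Srf was 0.480. The labels do not say whether same-numbered hearts were paired. Correlations of their deviations were 0.06, 0.06 and 0.01, which cannot decide it with so few hearts. With the replicate number as a block 1 gene was called, and the Srf fold change was 0.36. Each factor had at least 547 reads in every library, and with 3 hearts a group the SEs of the fold changes were 0.11 to 0.19 on the log2 scale.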
